A study of Homo sapiens with 6 samples.

Results

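Of the 16269 clusters (binding sites) that were called in 6 PAR-CLIP libraries of hnRNP A1, 993 (6.10%) carried a deposited annotation that begins with "exon", and these exon clusters are described here. Members were taken from the annotation alone, which names a transcript, the number of the exon and the number of exons in that transcript, so that each cluster could be assigned to a first, internal or last exon or to a single-exon transcript. The comparison class was the 9637 clusters annotated as intron. The cells were HEK293T, a line from human embryonic kidney, and were transiently transfected with myc-tagged hnRNP A1, fed 4-thiouridine and UV cross-linked, and the tagged protein was recovered with a rabbit polyclonal antibody to myc. In the A1dm libraries the protein carried the substitutions R75D and R88D and its monomeric band was excised. In the A1-HMW libraries the protein was WT and the RNA came from the slower band, which the labels describe as dimeric complexes. In the A1 libraries the protein was WT and the RNA came from the monomeric band. Each group had 2 libraries, which the paper describes as independent experiments. A1 and A1-HMW are bands of the same WT protein, and those of 1 experiment may come from 1 precipitate, which the labels do not state. The host cells keep their own untagged hnRNP A1, and the expressed protein came from a plasmid, so its level was not that of the endogenous gene. No exon cluster lay in HNRNPA1, the transfected gene, in any of the 6 libraries, and 1 cluster in A1dm replicate 2 lay in its promoter window.

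HnRNP A1 is an abundant nuclear protein that shuttles to the cytoplasm. It binds single-stranded RNA through a pair of RNA recognition motifs and is best known for repressing the use of exons in splicing, with further roles in export, translation and RNA stability. A contact inside an exon can be made on the precursor or on the mature transcript, whereas a contact inside an intron is made before splicing is complete. In PAR-CLIP the cross-linked uridine is read as a cytidine after reverse transcription, and a caller gathers such substitutions into short clusters.

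The exon clusters were short stretches of A and G with few T. The sequences below are those of the exon regions that recurred most, where a region is the union of overlapping clusters on one strand. They are shown as examples of the purine stretches and of the sites shared between libraries, and the shares reported below are counted over all exon clusters. Each is the reference sequence (GRCh37, the build of hg19) of a single cluster of the region, with runs of 6 or more purines in capitals. It is written on the strand of the cluster, 5′ to 3′, and the coordinates given further below are those of this cluster. The first 7 regions held a cluster in 5 of the 6 libraries.
FUBP1: aaaatgaatGAGGAAAGGAAGGAAAAc
ASH1L: agtGGAGAGGGAGAGGAAAGGGt
NEMP1: gtGAAAGGAAGGAGGAGGAAAGGAAAtt
MARK3: GGGGAGtGAGGGAAAGGAAGAAc
KCTD6: ggttGAGAAAGGAGAAAGAGAAAAtga
STC2: GAGGGGAtGGGAAAGGAAAGAAGAGAAt
BAZ1B: GAAAGAGGAtGAAGGAAGGAGAGAGAGt
The next 4 regions held a cluster in both A1dm libraries.
MKI67: AAGAGAGGAGGGAGAAAGAGt
CCDC13: agatGGAGAAAAAGAGGGAAAAAGAAc
ATF3: GAAGAAGAtGAAAGGAAAAAGAGGc
HMGB2: gatAAGAAGGGGAAGAAAAAGGAc
A further 3 regions held a cluster in both A1-HMW libraries and both A1 libraries.
RBBP4: AGGAGGGAGttGGGAAGAGAGGAAGGGGt
ENSG00000258634: gctGAAAAGAGAGGGAAAGAAGGc
HNRNPL: gggaatGAAGGAAGAGAAGGAGAAAc

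The 7 regions of 5 libraries lay in different parts of their genes. The FUBP1 cluster (chr1:78426297-78426323, minus strand) lay in the first exon of the noncoding transcript ENST00000470287 of this gene, which encodes a single-strand DNA and RNA binding protein. Those of ASH1L (chr1:155307271-155307293, minus strand), a histone methyltransferase, NEMP1 (chr12:57450352-57450379, minus strand), a nuclear envelope protein, and STC2 (chr5:172743721-172743748, minus strand), a secreted glycoprotein, lay in 3′ UTRs within last exons of 2484, 4417 and 3527 nucleotides. That of MARK3 (chr14:103955984-103956006, plus strand), a kinase of microtubule-associated proteins, was annotated to the first exon of ENST00000556463 and lay in the 3′ UTR on the strand-aware annotation. That of KCTD6 (chr3:58479887-58479913, plus strand), an adaptor of a ubiquitin ligase, lay in the 5′ UTR. Only BAZ1B (chr7:72912831-72912858, minus strand), a subunit of a chromatin remodeling complex, had its region in coding sequence, in exon 4 of 20, where it ended 4 nucleotides from the 3′ end of a 202-nucleotide exon. All 7 held clusters in both A1-HMW and both A1 libraries and in 1 A1dm library, which was replicate 2 except in MARK3 and STC2, where it was replicate 1.

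All 4 regions shared by the A1dm replicates lay in coding sequence of internal exons. MKI67 (chr10:129910503-129910523, minus strand) encodes the proliferation marker Ki-67, and its region in exon 8 of 14 also held a cluster in both A1 libraries and in no A1-HMW library. CCDC13 (chr3:42799726-42799752, minus strand), which encodes a coiled-coil protein, showed the same pattern in exon 2 of 16. ATF3 (chr1:212791478-212791502, plus strand), a stress-induced transcription factor, held clusters in both A1dm libraries and A1 replicate 1, 9 nucleotides from the 5′ end of the 108-nucleotide exon 3 of 4. HMGB2 (chr4:174254243-174254266, minus strand), a DNA-bending chromatin protein, held a cluster in both A1dm libraries, in exon 3 of 5, and in no A1-HMW or A1 library. RBBP4 (chr1:33150993-33151021, plus strand), a histone-binding protein, had its region in a 3′ UTR. That of ENSG00000258634 (chr1:110603663-110603686, plus strand), a long noncoding RNA, lay in a single-exon lncRNA. That of HNRNPL (chr19:39327591-39327616, minus strand), another hnRNP, lay in a noncoding exon. These were 3 of the 5 regions found in both A1-HMW and both A1 libraries alone, so their lack of an A1dm cluster follows from that choice.

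The share of clusters that was exonic was highest with A1dm and lowest with A1. In A1dm, 25 of 232 clusters (10.8%, 95% Wilson interval 7.41 to 15.4%) and 65 of 596 (10.9%, interval 8.65 to 13.7%) were exon clusters. In A1-HMW, 59 of 671 (8.79%, interval 6.88 to 11.2%) and 57 of 865 (6.59%, interval 5.12 to 8.44%) were. In A1, 353 of 5805 (6.08%, interval 5.49 to 6.73%) and 434 of 8100 (5.36%, interval 4.89 to 5.87%) were. The library values of the 3 groups did not overlap in this share, but some of their intervals did. The interval of A1-HMW replicate 2 overlapped those of both A1 libraries. That of A1-HMW replicate 1 overlapped those of both A1dm libraries. The mean was 10.8 ± 0.0920% in A1dm, 7.69 ± 1.56% in A1-HMW and 5.72 ± 0.511% in A1 (SD, n = 2 each). A1dm exceeded A1 by 5.12 percentage points, A1-HMW exceeded A1 by 1.97, and A1dm exceeded A1-HMW by 3.15. Each comparison gave an exact two-sided permutation p of 0.333, the smallest that 2 libraries against 2 allow, so none of the differences between groups in this report can pass a threshold of 0.05. The difference between A1-HMW and A1 was 0.870 without A1-HMW replicate 1 and 3.07 without A1-HMW replicate 2, and that between A1dm and A1-HMW was 2.05 without A1-HMW replicate 2. The deposited lists carry no read numbers, so the depth behind these clusters is unknown, and the 3 groups differ in their number of clusters by far more than in their exon share. The part of depth or of the calling threshold in these shares was not tested.

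**Figure D1:**
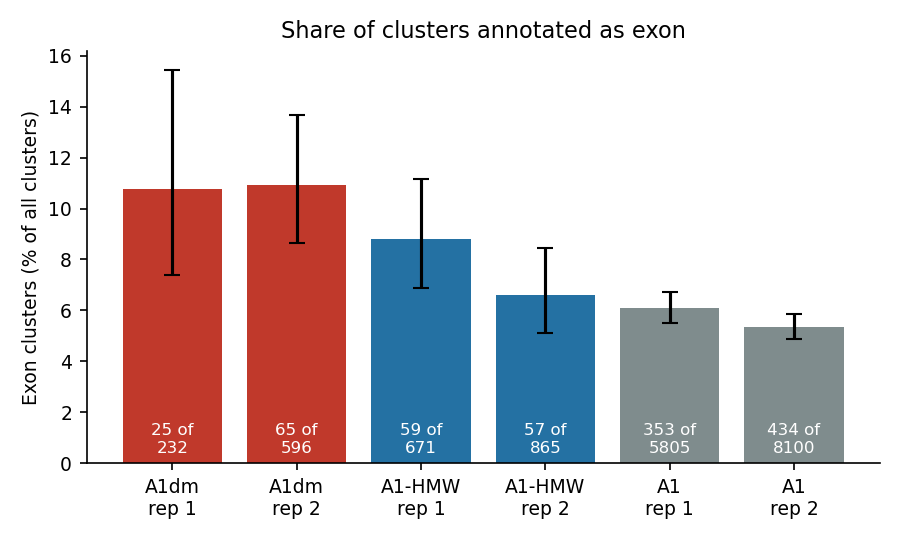
Bars give the share of all clusters of a library that were annotated as exon (y axis, %), with the number of clusters inside each bar, for the A1dm, A1-HMW and A1 libraries. Error bars are 95% Wilson intervals, which cover counting error only. The A1dm libraries stood at 10.8 and 10.9% and the A1 libraries at 6.08 and 5.36%.

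The deposited annotation gives the ends of transcripts to classes of their own. Among the 762 exon clusters that could be matched to the named exon in the reference, none had its centre closer than 101 nucleotides to the start or 108 nucleotides to the end of the transcript. When the clusters were placed by strand on GENCODE exons instead, 29.7 and 30.5% of the A1dm clusters, 19.4 and 14.8% of the A1-HMW clusters and 13.2 and 11.6% of the A1 clusters lay in an exon. The order of the groups was the same and the difference between A1dm and A1 was 17.7 percentage points. In A1dm replicate 1, for example, 69 clusters lay in an exon by this placement, of which 25 were annotated as exon, 24 as transcription termination site and 17 as promoter. In A1, 304 of the 353 and 369 of the 434 exon clusters lay in an exon by this placement, so the annotated class also holds clusters outside exons of their own strand.

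Internal exons took a larger share of the exon clusters in A1dm than in A1, and last exons a smaller one. Internal exons held 13 of 25 (52.0%) and 31 of 65 (47.7%) exon clusters in A1dm, 15 of 59 (25.4%) and 16 of 57 (28.1%) in A1-HMW, and 121 of 353 (34.3%) and 150 of 434 (34.6%) in A1. A1dm exceeded A1 by 15.4 percentage points and A1-HMW lay 7.67 below A1 (a difference of -7.67), and the library values of the 3 groups did not overlap. Last exons held 24 and 32.3% in A1dm, 40.7 and 49.1% in A1-HMW, and 46.2 and 43.3% in A1. The A1dm libraries were below both A1 libraries, with a difference of -16.6, whereas those of A1-HMW lay on either side of A1 with a difference of 0.15. First exons held 20 and 15.4% in A1dm, 16.9 and 19.3% in A1-HMW, and 11.6 and 14.7% in A1. Their mean was 4.51 points higher in A1dm and 4.94 points higher in A1-HMW than in A1. The A1dm difference in first exons was 2.20 without A1dm replicate 1, 6.82 without A1dm replicate 2 and 2.95 without A1 replicate 1. All of these comparisons gave an exact permutation p of 0.333, except that of last exons between A1-HMW and A1 (p = 1, exact). A first exon in this annotation is often not the start of a gene. The named transcript started over 1 kb inside the gene for 4 of 4, 6 of 10, 5 of 7, 4 of 7, 19 of 30 and 32 of 47 first-exon clusters of the A1dm, A1-HMW and A1 libraries that could be measured.

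The exon clusters of A1dm lay in coding sequence more often than those of A1-HMW and A1. On the strand-aware annotation, 16 of 25 (64.0%, Wilson interval 44.5 to 79.8%) and 33 of 65 (50.8%, interval 38.9 to 62.5%) A1dm exon clusters lay in coding sequence. In A1-HMW the values were 15 of 59 (25.4%, interval 16.1 to 37.8%) and 16 of 57 (28.1%, interval 18.1 to 40.8%), and in A1 they were 117 of 353 (33.1%, interval 28.4 to 38.2%) and 148 of 434 (34.1%, interval 29.8 to 38.7%). The A1dm mean exceeded the A1 mean by 23.8 percentage points, and the A1-HMW mean minus the A1 mean was -6.88, both without overlap between the library values (exact permutation p = 0.333). The intervals of A1-HMW and A1 did overlap. When clusters annotated as promoter or termination site were counted with the exon clusters, the A1dm difference was 15.4 and the A1-HMW difference turned to 1.55. The 3′ UTRs held 20 and 27.7% of the exon clusters in A1dm, 30.5 and 28.1% in A1-HMW, and 28.3 and 25.3% in A1. Exons of lncRNAs held 4 and 0% of the exon clusters in A1dm (1 and 0 clusters) and 16.9 and 12.3% in A1-HMW (10 and 7). In A1 they held 8.22 and 8.06% (29 and 35).

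**Figure D2:**
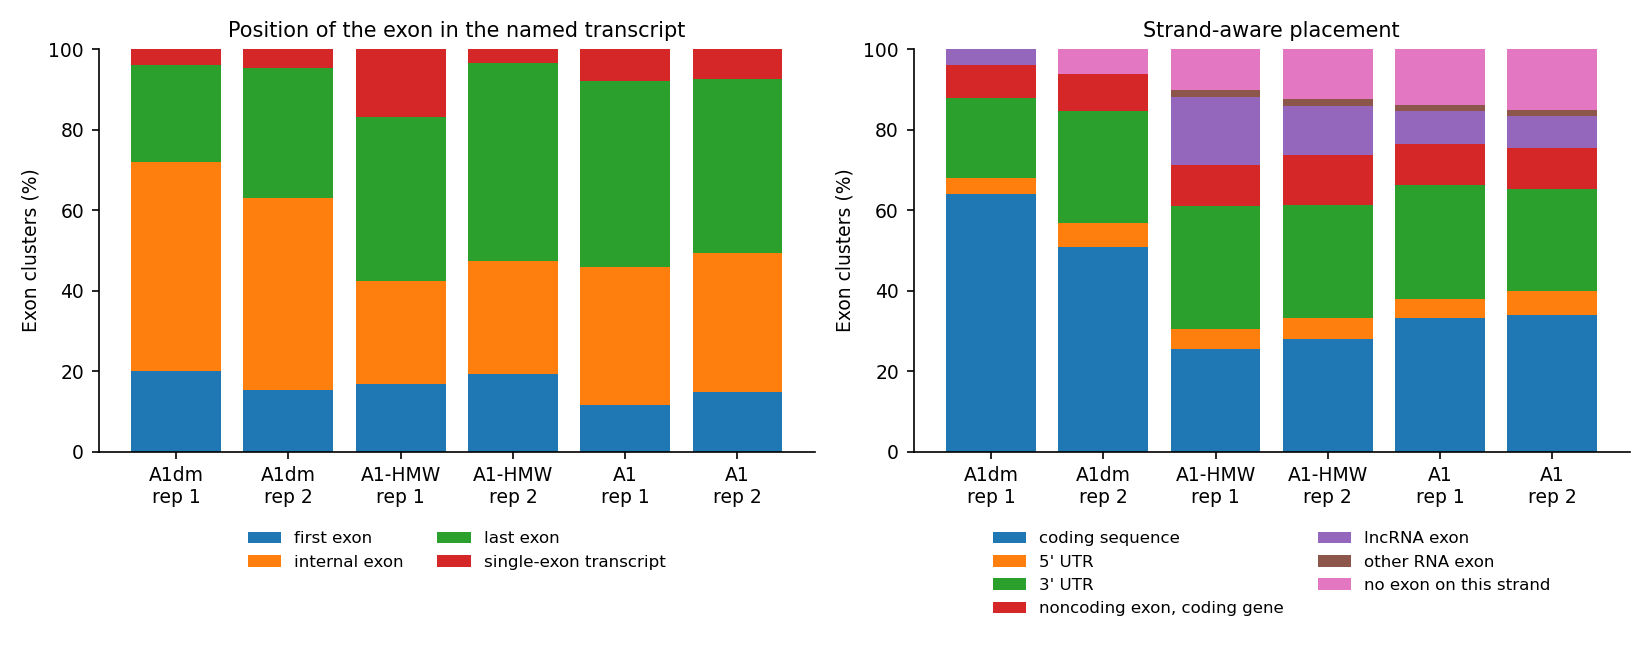
Stacked bars give the exon clusters of each library (%, y axis) by the position of the exon in the transcript that the deposited annotation names (left) and by strand-aware placement on GENCODE (right). Coding sequence held 64.0 and 50.8% of the A1dm exon clusters and 33.1 and 34.1% of those of A1, and internal exons 52.0 and 47.7% against 34.3 and 34.6%.

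Some exon clusters lay on the strand opposite to the named transcript, since the annotation does not use strand. The transcript was found in the reference for 920 of the 993 (92.6%). Among these, 0 of 21 and 3 of 60 exon clusters were antisense in A1dm (0 and 5%), 6 of 57 and 6 of 54 in A1-HMW (10.5 and 11.1%), and 47 of 329 and 62 of 399 in A1 (14.3 and 15.5%). The count of 0 of 21 has an upper Wilson bound of 15.5%, which takes in the A1 replicate 1 value. The intron clusters of the same libraries were antisense in 11.7 and 13.9% of cases in A1dm, 12.8 and 14.8% in A1-HMW, and 13.9 and 16.7% in A1. The sense share of exon clusters was 12.4 percentage points higher in A1dm and 4.09 points higher in A1-HMW than in A1 (exact permutation p = 0.333 each). Of the 124 antisense exon clusters, 80 lay in no annotated gene on their own strand and 35 in an intron. On the sense strand alone the A1dm minus A1 differences were 4.80 for the exon share, 12.8 for internal exons and 19.7 for coding sequence.

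The internal exons with a cluster had a longer median length than all internal exons of their transcripts, themselves included. Their median length was 214.5 and 162 nucleotides in A1dm, 184 and 220 in A1-HMW, and 170 and 177.5 in A1, whereas all internal exons of the same transcripts had medians of 135, 121, 134, 134, 129 and 128 nucleotides in that order of libraries. A longer exon offers more positions for a cluster, and no test was made. The longest exon among the regions found in 4 or 5 libraries and placed in internal exons was exon 9 of ANKRD11, a chromatin regulator, of 6578 nucleotides, a gene named here after its values were seen. Many internal-exon clusters lay near a splice site, as did many of the possible placements in these exons. Within 50 nucleotides of an end of the internal exon were 5 of 10 and 20 of 29 clusters in A1dm, 11 of 15 and 7 of 13 in A1-HMW, and 67 of 97 and 76 of 118 in A1. Leaving out clusters that crossed an exon border, the shares were 50 and 66.7% in A1dm, 71.4 and 45.5% in A1-HMW, and 64.3 and 59.6% in A1, whereas of all placements of the same length in the same exons 52.9 and 69.7%, 63.7 and 38.7%, and 61.5 and 55.8% lay as near in the same order. Those that crossed a border numbered 0, 2, 1, 2, 13 and 14, again in the order A1dm, A1-HMW and A1. Last exons were long, with medians between 2975.5 and 4032.5 nucleotides over the 6 libraries, and few of their clusters lay within 50 nucleotides of an exon end, 0 of 6 and 0 of 18 in A1dm, 1 of 20 and 1 of 22 in A1-HMW, and 5 of 121 and 8 of 132 in A1.

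Most exon regions were found in a single library, though less often than regions of all annotations. The 993 clusters merged into 647 regions, of which 399 (61.7%) held clusters of 1 library, beside 67.2% of all regions. A further 179 held clusters of 2 libraries, 46 of 3, 16 of 4 and 7 of 5, and none of 6. Among the regions of all annotations, 0.403% (46 of 11416) held clusters of 5 or 6 libraries, against 7 of 647 (1.08%) for exon regions. Both A1dm libraries held a cluster in 4 of the 86 A1dm exon regions (4.65%), beside 4.28% of A1dm regions of all annotations. Both A1-HMW libraries did so in 12 of 104 (11.5%), beside 9.95%, and both A1 libraries in 217 of 571 (38.0%), beside 31.5%. An A1 cluster was also present in 43 of the 86 A1dm exon regions (50%, background 47.9%) and in 69 of the 104 A1-HMW exon regions (66.3%, background 68.1%). An A1-HMW cluster was present in 18 of the 86 A1dm exon regions (20.9%, background 21%). For these overlaps between groups the exon regions lay within 3 percentage points of all regions. The lists that were set against A1 share its libraries.

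All 23 regions found in 4 or 5 libraries held a cluster in both A1 libraries, and 18 of them held an A1dm cluster. By placement, 9 were in 3′ UTRs, 8 in coding sequence, 3 in noncoding exons of coding genes, 2 in lncRNA exons and 1 in a 5′ UTR. The 16 regions of exactly 4 libraries fell into 3 patterns. Both A1-HMW libraries with both A1 libraries made up 5 regions, both A1dm libraries with both A1 libraries made up 2, and 1 library each of A1dm and A1-HMW with both A1 libraries made up 9. Among the last were, chosen here after their values were seen, the coding exons of CWC15 and RBM25, which encode splicing proteins, of SPPL2A, an intramembrane protease, and of UPF3B, a factor of nonsense-mediated decay, and the 3′ UTR of MCL1, an inhibitor of apoptosis.

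**Figure D3:**
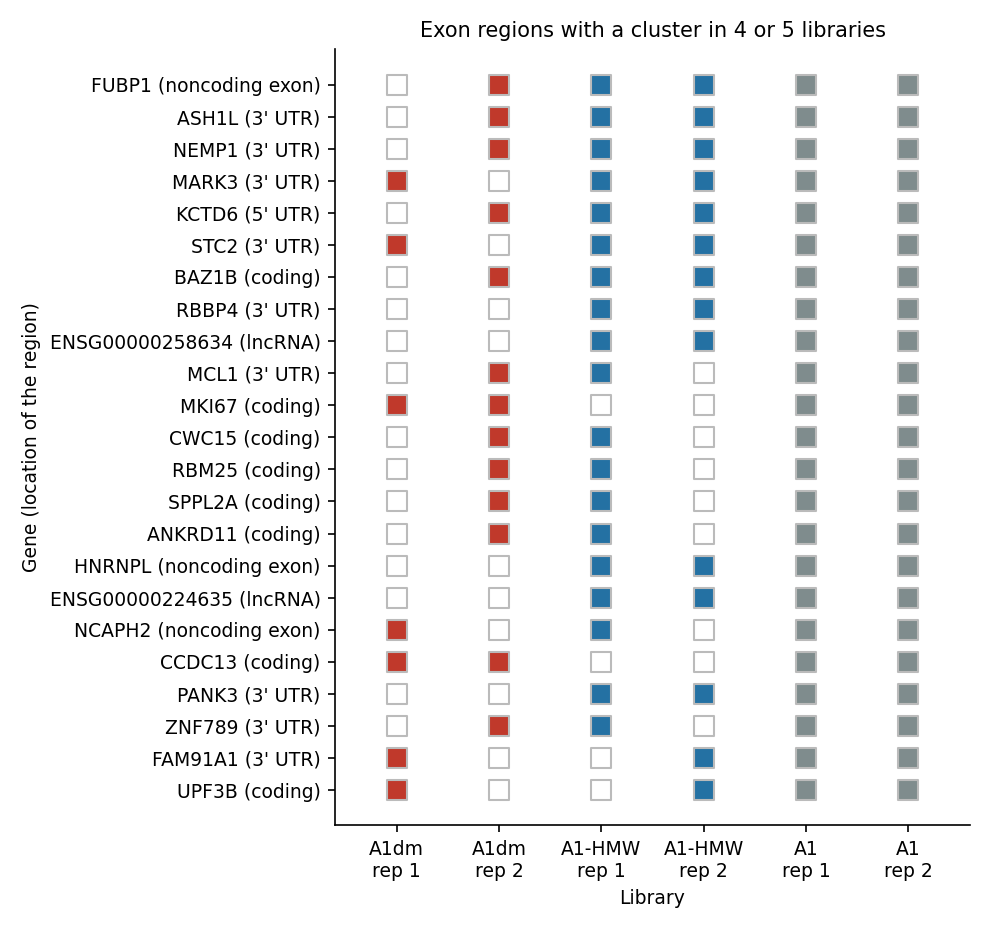
Each line is 1 of the 23 exon regions with a cluster in 4 or 5 libraries, with the gene and the strand-aware location, and each column is a library. A filled square marks a library with a cluster there. Both A1 libraries were filled in all 23 lines, and only MKI67 and CCDC13 were filled in both A1dm libraries.

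An exon cluster recurred in the other replicate slightly more often than an intron cluster in 5 of 6 libraries. In A1dm, 4 of 25 (16.0%) and 4 of 65 (6.15%) exon clusters recurred, against 11 and 4.65% of intron clusters. In A1-HMW, 12 of 59 (20.3%) and 12 of 57 (21.1%) recurred, against 20.9 and 16.2% of intron clusters. In A1, 216 of 353 (61.2%) and 217 of 434 (50%) recurred, against 58.1 and 42.1% of intron clusters. The mean difference of 3.65 percentage points had an exact sign-flip permutation p of 0.0625 and did not pass 0.05. With sense exon clusters against all intron clusters it was 5.79 (exact p = 0.03125, the smallest that 6 libraries allow), and with all exon clusters against sense intron clusters it was 3.11 (exact p = 0.09375). With both classes on the sense strand, a comparison added after seeing the data, it was 5.25 (exact p = 0.03125). The replicates of a group share their overlaps and are not independent, which the test does not take into account.

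Exon clusters of A1 coincided with A1dm clusters more often than its intron clusters did. In A1, 10.5% (Wilson interval 7.70 to 14.1%) and 8.53% (interval 6.25 to 11.5%) of exon clusters overlapped an A1dm cluster, against 4.35% (interval 3.72 to 5.08%) and 3.56% (interval 3.08 to 4.12%) of intron clusters. In A1-HMW, 25.4 and 17.5% of exon clusters overlapped an A1dm cluster, against 12.2 and 10.8% of intron clusters. The intervals of exon and intron clusters did not overlap in either A1 library, but did in A1-HMW replicate 2 (9.82 to 29.4% against 8.43 to 13.9%). These intervals cover counting error only. Both A1 libraries were set against the same A1dm lists, so they are not independent. The excess was not particular to A1dm. Of the A1 exon clusters, 16.4 and 14.7% overlapped an A1-HMW cluster, against 13.0 and 10.4% of the A1 intron clusters. The pattern was not seen for overlap of A1dm clusters with A1, which was 60.0 and 47.7% for exon clusters and 67.0 and 50.8% for intron clusters. A1dm also had a larger part of its clusters in exons than A1, and its part in the first pattern was not tested.

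**Figure D4:**
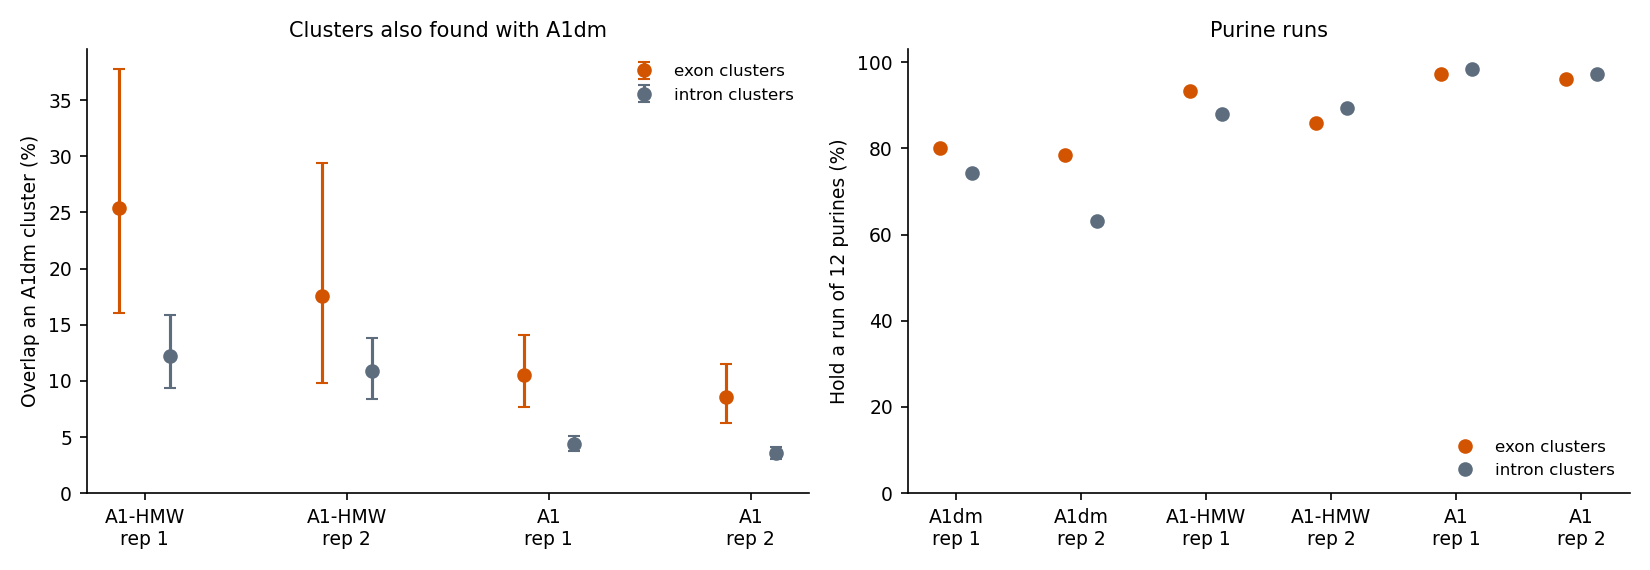
Left, share of the exon and intron clusters of each A1-HMW and A1 library that overlapped an A1dm cluster (y axis, %), with 95% Wilson intervals. Right, share of exon and intron clusters with a run of 12 purines in all 6 libraries (y axis, %). In A1, exon clusters stood at 10.5 and 8.53% on the left, against 4.35 and 3.56% for intron clusters.

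The purine content of exon and intron clusters differed by less than the spread between libraries. A and G made up 87 and 84.2% of the bases of exon clusters in A1dm, 89.7 and 88.0% in A1-HMW, and 90.7 and 90.9% in A1. For intron clusters the values were 83.5 and 81.2%, 88.5 and 89.1%, and 90.9 and 90.8% in the same order. The mean difference between exon and intron clusters was 1.11 percentage points (exact sign-flip p = 0.219, higher in 4 of 6 libraries), and 0.639 without A1dm replicate 1 and 0.724 without A1dm replicate 2. Among the exon clusters, 80.0 and 78.5% held a run of 12 purines in A1dm, 93.2 and 86.0% in A1-HMW, and 97.2 and 96.1% in A1. The mean difference from intron clusters was 3.39 points (exact sign-flip p = 0.3125, higher in 3 of 6 libraries), and 1.01 without A1dm replicate 2. In A1dm the exon clusters were the higher in both libraries, against 74.3 and 63.2% for intron clusters. The exons around the clusters were not of this kind. The host exons as a whole held 50.1 to 51.2% A and G over the 6 libraries, and 2.34 to 3.32% of their 25-nucleotide windows held a run of 12 purines. The hexamer GAGGAA, searched on the strand of the cluster alone, was present in 16.0 and 35.4% of the exon clusters in A1dm, 35.6 and 29.8% in A1-HMW, and 36.8 and 35.7% in A1, and in 1.16 to 1.83% of the 25-nucleotide windows of the host exons. It is itself a purine run and so is not independent of the purine count. TAGG, the core of the classical hnRNP A1 motif, was present in 0 and 1.54% of the exon clusters in A1dm, 8.47 and 1.75% in A1-HMW, and 3.97 and 3.69% in A1. The median exon cluster was 23 to 25 nucleotides long in the 6 libraries, and its length differed from that of intron clusters by 0 on average.

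The A1dm exon clusters that overlapped an A1 cluster were on average richer in purines than those that did not. All 15 exon clusters of A1dm replicate 1 and all 31 of replicate 2 that overlapped an A1 cluster held a run of 12 purines. Of those without such an overlap, 5 of 10 (50%) and 20 of 34 (58.8%) did. A and G made up 92.4 and 91.6% of the bases with overlap, against 78.3 and 77.1% without. In A1-HMW all 40 and all 41 exon clusters that overlapped A1 held the run, against 15 of 19 (78.9%) and 8 of 16 (50%) without. Nearly all A1 clusters held such a run, so a cluster that overlaps one would often hold it too, and no test was made. The coding location differed between the overlapping and the other clusters in opposite directions in the A1dm replicates. With overlap, 8 of 15 and 18 of 31 A1dm exon clusters were in coding sequence, and without overlap 8 of 10 and 15 of 34 were. By regions, 22 of the 41 exon regions found in A1dm alone (53.7%) and 23 of the 43 shared with A1 (53.5%) were coding, against 12 of 33 (36.4%) in A1-HMW alone and 158 of 475 (33.3%) in A1 alone.

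With those antisense to the named transcript left out, the exon clusters were assigned to 509 genes, of which 286 had them in 1 library, 158 in 2, 40 in 3, 18 in 4 and 7 in 5. Where the transcript was not found in the reference, the gene came from the placement or, failing that, from the annotation, and the strand was then not established. No A1dm library had a gene with more than 1 exon cluster. SON, a large nuclear speckle protein, had 1 in each A1dm library at different places of exon 3 of 13 and none in A1-HMW or A1. In A1 the genes with most exon clusters were HOXC8, a homeobox transcription factor, with 3 and 2 in the A1 replicates and 1 in A1-HMW replicate 2, and HTATSF1, a transcription and splicing factor, with 2 and 3. By strand-aware placement, 1 of the HOXC8 clusters in each A1 replicate lay in an intron. A further 6 genes had 4 A1 exon clusters in all, of which CACNG8, CENPF and CFAP70, the first in alphabetical order, had 2 in each A1 replicate. CENPF, a kinetochore protein, also had 1 in A1dm replicate 1. An intron cluster in the same gene and library was found for 0 of 25 and 3 of 61 in A1dm, 4 of 53 and 3 of 48 in A1-HMW, and 71 of 290 (24.5%) and 97 of 352 (27.6%) in A1, whose lists held several times more clusters.

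Gene groups were described by how many of their members had an exon cluster in any library. Over all 4515 genes with a cluster of any kind, 509 (11.3%) had an exon cluster. The corresponding counts were 10 of 30 for chromatin remodelers and histone chaperones, 4 of 17 for hnRNPs, 3 of 19 for spliceosome and SR proteins, 2 of 12 for translation factors, 2 of 6 for chaperones and stress response genes, 1 of 4 for ribosomal proteins, 4 of 6 for nuclear long noncoding RNAs and 0 of 47 for small and structural noncoding RNAs. These counts are small and were not tested. The counts over all list members that follow include genes without any cluster, so 11.3% is no background for them. Of all list members, chromatin remodelers and histone chaperones had 10 of 45, among them BAZ1B, HMGB2, CHD6 with 1 cluster in A1-HMW replicate 1 and in both A1 libraries, and SMARCC2 in both A1 libraries alone. HnRNPs and related RNA binding proteins had 4 of 38. Besides FUBP1 and HNRNPL these were HNRNPM, with 1 cluster in A1dm replicate 2 and in both A1 libraries, and HNRNPR, with 1 in A1dm replicate 2 and 1 in A1 replicate 2. Spliceosome and SR proteins had 3 of 54, of which PRPF6 had its cluster in A1dm replicate 2 and PRPF4 and SF3B2 theirs in both A1 libraries. Translation factors had 2 of 39, both in A1dm alone, EIF3A in replicate 1 and EIF5B in replicate 2. Of all 86 A1dm exon regions, 41 were found in A1dm alone. Molecular chaperones and stress response genes had 2 of 29, ATF3 and, in A1dm replicate 2 alone, HSP90B1, a chaperone of the endoplasmic reticulum. Cytosolic ribosomal proteins had 1 of 81, RPL37 in A1-HMW replicate 2. Nuclear long noncoding RNAs had 4 of 14, among them MALAT1 in A1-HMW replicate 1 and A1 replicate 2, NEAT1 in A1dm replicate 1 and A1 replicate 1, and KCNQ1OT1 in both A1 libraries. XIST had 2 clusters in A1-HMW replicate 2 and 1 in A1 replicate 2. Small and structural noncoding RNAs had 0 of 4089 and mitochondrial mRNAs 0 of 13. The annotation gave transcript ends to classes of their own, so a short RNA could hardly hold an exon cluster. No cluster of any kind was assigned to a mitochondrial mRNA. The counts of 0 therefore do not show a lack of binding. Of the 26 list members with an exon cluster, 11 had it in 1 library alone. Of the other genes that the study names, AGFG1 had clusters in introns alone, and OVCH1-AS1 had none assigned to it in an exon or intron. The paper shows an OVCH1-AS1 intron bound by A1-HMW only. The clusters used here are not the paper's peaks, so the count does not contradict that site.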

How the data were processed

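The authors mapped the reads to hg19 (the paper's methods name STAR, the submitters' processing notes Bowtie) and, per the file headers, called clusters with wavClusteR and annotated them with HOMER on the Ensembl gene set (release 87). The methods use PARalyzer for peaks, so these clusters are not the paper's peaks. The deposited score was 0 for all clusters, so the lists give no read number or depth. Read numbers that the paper's supplement gives for PARalyzer clusters were not used here. Coordinates were used as deposited, with the start taken from the cluster's identifier, which lay 1 nucleotide below the listed start in 100% of lines. Exon clusters were those annotated as exon. Strand and placement came from GENCODE (version 44, lifted to GRCh37), in which 73 of the named transcripts of exon clusters were not found; these clusters were placed by coordinates. Overlap meant at least 1 shared nucleotide on the same strand. Intervals of shares are 95% Wilson intervals (counting error only). Groups were compared over libraries by an exact permutation test and exon with intron clusters by an exact sign-flip test, in Python 3.11.15 with scipy 1.17.1. On simulated data, 1000 of 1000 overlap calls were right. Regions and genes were named by recurrence in 5 or more libraries, in both A1dm or both A1-HMW libraries (up to 10), by most exon clusters in a group (5 genes), and as up to 4 members of each gene list. Members, lists and tests were chosen with earlier results of these data known, and the internal-exon and coding-sequence shares were added after seeing the data. Alternatives were leaving out each library, a replicate block, other overlaps, starts, strands and denominators.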

Additional observations from a re-analysis of the deposited data

Results flagged for a closer look

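The internal-exon share of the exon clusters moved in opposite directions in the comparisons with A1. It was 15.4 percentage points higher in both A1dm libraries than in A1 on average, and the A1-HMW minus A1 difference was -7.67, so that the effects lay 23.1 points apart. The coding-sequence share showed the same split, with 23.8 for A1dm minus A1 and -6.88 for A1-HMW minus A1, which lay 30.6 points apart. Both comparisons use the same A1 libraries, and the difference between the effects was not tested.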

How the results depend on the processing

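Over 17 results and 147 alternatives, 3 values changed sign and 2 passed their threshold. The coding-sequence share of A1-HMW minus A1 was 1.55 with promoter and termination-site clusters counted in, against -6.88 without them. The recurrence difference was 5.79 with sense exon clusters against all intron clusters and 5.25 with both on the sense strand (exact sign-flip p = 0.03125 each), against 3.65 with all. The sign-flip test treats the 6 libraries as independent, which replicates that share their overlaps are not, so these p-values do not establish a difference. The last-exon share of A1-HMW minus A1 ranged from -4.07 without A1-HMW replicate 2 to 4.38 without A1-HMW replicate 1, against 0.15 with all libraries. With a replicate block, the exon-share difference between A1dm and A1 remained 5.12, since each group holds both numbers, and it changed no direction. The labels do not say that a number marks a shared experiment, so whether the numbers pair the samples was not settled. Unknown depth limits all values: a cluster absent from a list may be one with too few reads to be called. The A1dm shares rest on 25 and 65 exon clusters.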
